A study of Mus musculus with 28 samples.

Results

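The Dlx family of homeobox transcription factors was followed in developing mouse molars with its 6 members Dlx1, Dlx2, Dlx3, Dlx4, Dlx5, and Dlx6, together with Dlx6os1, a long noncoding RNA of the antisense class. These 7 genes were taken by their symbols from a table of 52636 genes counted by RNAseq in single tooth germs. The teeth were dissected from wild type C57BL/6JOlaHsd embryos at E13.5, E14.5, and E16.5, called E13 (bud stage), E14 (cap stage), and E16 (bell stage) here, with 7 teeth per stage. They came from 7 embryos at E13, 6 at E14, and 5 at E16, so that some E14 and E16 teeth are the left and right tooth of the same embryo. A second table, made with another program, covers E13, E16, and 6 lower molars of E15. The stages differ in embryonic age and in no treatment. Each library is a whole tooth germ, in which epithelium and mesenchyme were not separated and a little surrounding tissue may remain.

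Dlx genes are relatives of the fly gene Distal-less. In mammals they lie in convergently transcribed pairs, the genes of a pair pointing toward each other and sharing enhancers in the DNA between them. In the embryonic jaw their nested domains help to set position, with Dlx1 and Dlx2 covering the upper and lower jaw, Dlx5 and Dlx6 the lower jaw, and Dlx3 and Dlx4 its distal part. Mice that lack Dlx1 and Dlx2 together form no upper molars, mice that lack Dlx5 and Dlx6 together have a lower jaw that resembles an upper jaw, and mutations of DLX3 in humans cause defects of hair, teeth, and bone. Dlx6os1, also called Evf2, is transcribed from an enhancer between Dlx5 and Dlx6 and has been studied mainly in the embryonic forebrain, where Dlx genes promote the production of inhibitory neurons.

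The 3 pairs have the same layout in the GRCm38 annotation of GENCODE. Dlx1 lies on the plus strand at chr2:71528113-71533981 and Dlx2 on the minus strand at chr2:71543408-71546754, with 9426 bases between them. Dlx3 lies on the plus strand at chr11:95120119-95125296 and Dlx4 on the minus strand at chr11:95140447-95146263, 15150 bases apart. Dlx6 lies on the plus strand at chr6:6863334-6868568 and Dlx5 on the minus strand at chr6:6877805-6882085, 9236 bases apart. Dlx6os1 lies on the minus strand at chr6:6820189-6871592, and its 51404 bases contain all of Dlx6, but no exon of Dlx6os1 overlaps an exon of Dlx6.

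The homeobox, which encodes the DNA-binding homeodomain, runs over 180 bases in exons 2 and 3 of each of the 6 genes. Its last 48 bases, all in exon 3 and including the codons of the helix that contacts DNA, are shown from the GENCODE transcripts to let the members of each pair be compared. Capitals mark the bases that differ from the other gene of the same pair, and all are written 5′ to 3′ along the transcript.
Dlx1, chr2:71532264-71532311, plus strand: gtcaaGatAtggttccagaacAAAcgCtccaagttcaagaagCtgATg
Dlx2, chr2:71544877-71544924, minus strand: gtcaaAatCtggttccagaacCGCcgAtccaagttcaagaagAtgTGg
Dlx3, chr11:95123409-95123456, plus strand: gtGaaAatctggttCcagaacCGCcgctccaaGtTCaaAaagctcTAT
Dlx4, chr11:95141422-95141469, minus strand: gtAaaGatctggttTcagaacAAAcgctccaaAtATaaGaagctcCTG
Dlx5, chr6:6878441-6878488, minus strand: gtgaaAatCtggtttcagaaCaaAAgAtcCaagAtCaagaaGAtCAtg
Dlx6, chr6:6867041-6867088, plus strand: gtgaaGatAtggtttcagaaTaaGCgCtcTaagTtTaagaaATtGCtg
Dlx1 and Dlx2 differ at 9 of the 48 bases, Dlx3 and Dlx4 at 13, and Dlx5 and Dlx6 at 13.

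Over the whole homeobox the genes of a pair were identical at 73.9% of bases for Dlx1 and Dlx2, 71.7% for Dlx3 and Dlx4, and 73.3% for Dlx5 and Dlx6. The family is usually divided across the pairs into a group of Dlx1, Dlx4, and Dlx6 and a group of Dlx2, Dlx3, and Dlx5. Identity within these groups lay between 71.7% and 81.7%, the highest being that of Dlx2 and Dlx3. No transcript shown here shared more than 23 consecutive bases with another, which is shorter than a read, so no read could match 2 of these transcripts along its whole length.

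The HTSeq counts summed to between 17814073 and 27115729 reads per tooth. A normalized count is the read count divided by a size factor that corrects for the depth of the library. Epithelial and mesenchymal markers were present at every stage, with none of the 10 markers of either list at 0. The summed epithelial markers were 17657 to 26315 normalized counts at E13, 30534 to 40109 at E14, and 46413 to 75675 at E16. By the edgeR test 9 of the 10 were higher and 1 lower at E14 than at E13. From E14 to E16, 8 of the 10 were higher and none lower. Over all genes tested 11.3% were higher and 8.47% lower at the former step, and 15% and 13.1% at the latter. The summed mesenchymal markers were 120223 to 133286 at E13 and 111888 to 127125 at E14. At E16 they were 56353 in the left tooth of embryo 3 and 111924 to 130669 in the other teeth. Of these 10, 1 was higher and 2 lower at E14 than at E13. From E14 to E16, 2 were higher and 4 lower. Without that tooth 3 were higher and 3 lower, then 3 and 5, where 30.4% and then 34.3% of all genes passed. The epithelial counts were the same without it. In whole teeth, a change in the number of cells of a type and a change in RNA per cell cannot be told apart, and the part of these markers in the results below was not tested. Muscle markers reached 28313 in an E13 tooth against 814 in the lowest, and 3 of 7 were lower at E14.

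The left tooth of embryo 3 at E16 stood apart. Dlx2 was there at 17.0%, Dlx3 at 13.1%, and Dlx5 at 23.5% of the mean of the other 6 E16 teeth, while Dlx1 was at 73.0%, Dlx4 at 38.4%, and Dlx6 at 57.1%. Dlx6os1 was at 151% and was the highest of all 21 teeth. Its summed mesenchymal markers were at 47.2%, its epithelial markers at 65.6%, its bone markers at 44.4%, its cartilage markers at 18.8%, and its muscle markers at 108% of the mean of the other E16 teeth. The E16 changes of the Dlx genes and of the RNAs at their loci, and the counts over the lists, are therefore given with and without it.

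The question addressed was how the levels of the 7 genes and the balance within the 3 pairs differed between the bud, cap, and bell stages. At E14 against E13, 4 of the 7 genes passed the edgeR quasi-likelihood test at an adjusted p below 0.05 (3 higher, 1 lower), where 19.7% of the 19101 genes tested passed (11.3% higher, 8.47% lower). At E16 against E14, 6 of 7 passed (4 higher, 2 lower) against 28.1% of all genes (15% higher, 13.1% lower). At E16 against E13 all 7 passed (5 higher, 2 lower) against 41.3% (21.6% higher, 19.6% lower). Dlx2, Dlx3, Dlx4, and Dlx5 were higher at E16 than at E13, Dlx1 and Dlx6 were lower, and Dlx6os1 fell and then rose. Without the deviating E16 tooth these counts were again 4, 6, and 7, while the shares of all genes tested were higher, at 30.4%, 34.3%, and 48.7%.

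**Figure D1:**
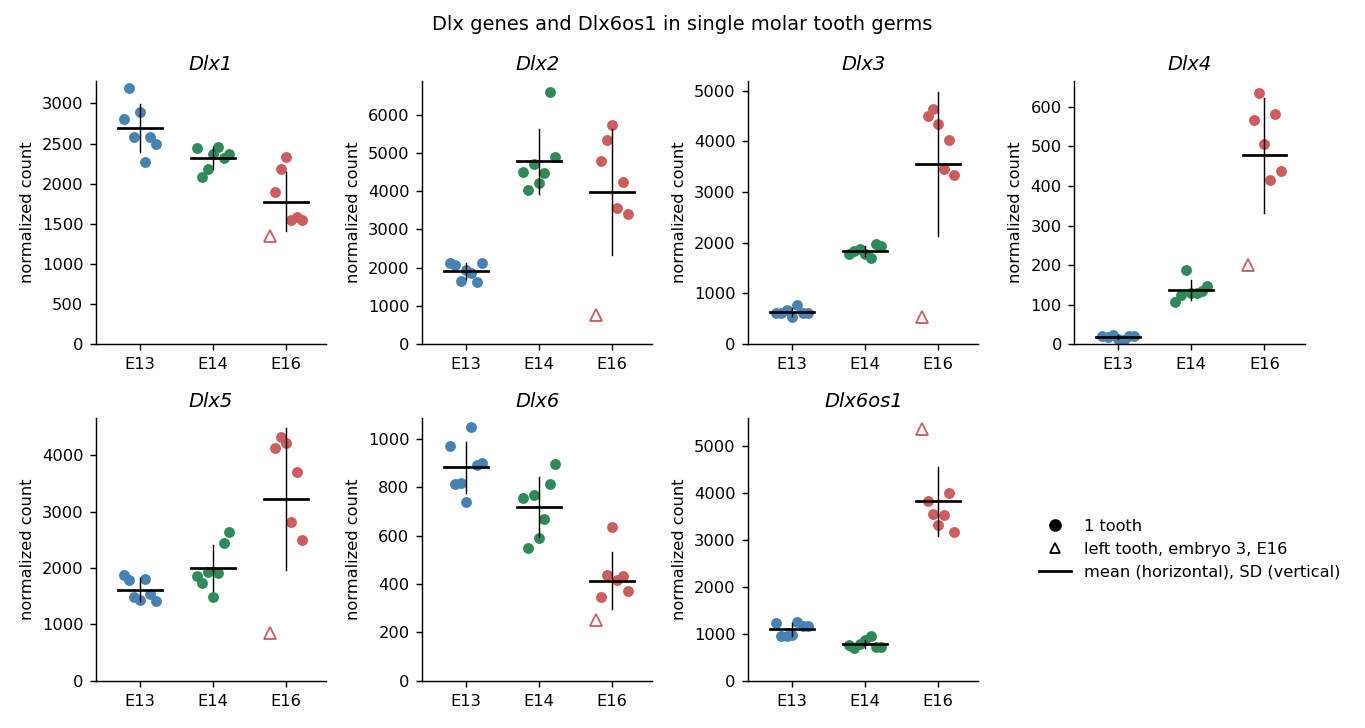
Normalized count (vertical axis, from 0) of each gene in the 7 teeth of E13, E14, and E16 (horizontal axis), with the mean and SD as lines. Dlx4 has no overlap between stages, and the open triangle, the left E16 tooth of embryo 3, lies below the other E16 teeth for Dlx1 to Dlx6 and above them for Dlx6os1.

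To compare genes with each other, normalized counts were divided by the total exon length in kb. At E13 the order from high to low was Dlx5 at 715 ± 88.00 (SD, n = 7), Dlx2 at 669.6 ± 73.1, Dlx1 at 499 ± 55.4, Dlx6 at 371 ± 44.0, Dlx3 at 242 ± 28.0, Dlx6os1 at 213 ± 26.1, and Dlx4 at 5.46 ± 1.42 normalized counts per kb. The ranges of Dlx5 and Dlx2, of Dlx2 and Dlx1, of Dlx1 and Dlx6, and of Dlx3 and Dlx6os1 overlapped there. At E14 Dlx2 led at 1674 ± 298 per kb, above Dlx5 at 885 ± 178 in all 7 teeth, followed by Dlx3 at 707 ± 37.6, Dlx1 at 429.7 ± 25.2, Dlx6 at 303 ± 52.0, Dlx6os1 at 153 ± 17.9, and Dlx4 at 41.9 ± 7.75. Of these neighbors only Dlx5 and Dlx3 had overlapping ranges. At E16 the levels of Dlx5, Dlx2, and Dlx3 were 1422 ± 558, 1393 ± 579, and 1360 ± 545 per kb, where Dlx5 exceeded Dlx2 in 4 and Dlx2 exceeded Dlx3 in 3 of the 7 teeth, so that these 3 could not be ordered by exon length. Dlx6os1 followed at 740.2 ± 143, then Dlx1 at 329 ± 68.2, Dlx6 at 174 ± 49.5, and Dlx4 at 146 ± 44.4. Among these the ranges of Dlx6os1 and Dlx1 were apart, and those of the other neighbors overlapped. The order was the same without the deviating tooth, and the ranges of Dlx3 and Dlx6os1 and of Dlx1 and Dlx6 were apart too. With the length of the longest transcript in place of all exons, Dlx5 at E16 was above Dlx2 (2262 and 1608 per kb) and Dlx2 above Dlx3 (1360) in each of the 7 teeth, although the ranges overlapped, and Dlx4 came before Dlx6, at 209 and 187 per kb. The order of means at E13 and E14 was the same with either length.

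The sum of the 6 Dlx genes per kb was 2502 ± 176 (SD, n = 7) at E13, 4040.4 ± 518 at E14, and 4825 ± 1799 at E16, where the deviating tooth had the lowest value at 1266 and the other 6 averaged 5418 ± 964 (SD, n = 6). Dlx3 and Dlx4 together made up 9.92% ± 1.16 of this sum at E13, 18.7% ± 1.70 at E14, and 30.3% ± 4.46 at E16. For Dlx5 and Dlx6 the share was 43.4% ± 2.64, then 29.3% ± 2.63, then 33.5% ± 2.34. Dlx1 and Dlx2 held 46.7% ± 3.37, 52.0% ± 2.33, and 36.2% ± 2.60. In the bud most of the sum belonged to the Dlx1/Dlx2 and Dlx5/Dlx6 pairs, and at the bell stage each of the 3 pairs held between 30.3% and 36.2% on average. The E16 shares without the deviating tooth were 31.9% for Dlx3 and Dlx4, 32.8% for Dlx5 and Dlx6, and 35.4% for Dlx1 and Dlx2. These shares depend on the lengths used: Dlx5 held 28.5% at E13 with exon length and 35.3% with transcript length. At E16 Dlx5 held 29.3% with exon length and 37.0% with transcript length, and Dlx3 held 27.0% and 21.5%. The similar E16 shares of the 3 pairs therefore apply to exon length.

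**Figure D2:**
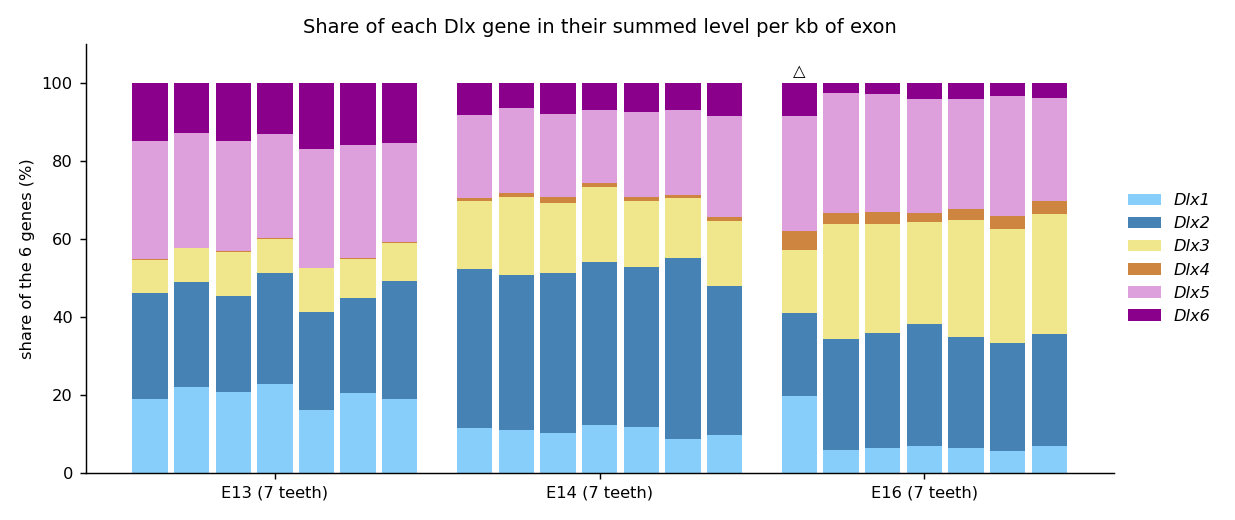
Share (vertical axis, %) of each of the 6 Dlx genes in their summed normalized count per kb, with 1 bar per tooth, grouped by stage. The Dlx3 and Dlx4 segments together grow from 9.92% on average at E13 to 30.3% at E16, and the bar with a triangle is the left E16 tooth of embryo 3.

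The Dlx1/Dlx2 pair moved apart between the bud and the cap. Dlx1 ranged from 2274 through a median of 2586 to 3186 normalized counts at E13, from 2085 through 2367 to 2458 at E14, and from 1349 through 1585 to 2335 at E16. The ranges of all 3 stages overlapped. Dlx1 was 1.16-fold lower at E14 than at E13 without passing the test (log2 fold change -0.22, SE 0.10, edgeR adjusted p = 0.139), fell 1.31-fold from E14 to E16 (log2 fold change -0.39, SE 0.10, edgeR adjusted p = 0.00525), and was 1.52-fold lower at E16 than at E13 (edgeR adjusted p = 3.36e-05). Its fall from E14 to E16 was 1.25-fold without the deviating tooth (edgeR adjusted p = 0.00787), and E16 was then 1.45-fold below E13.

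Dlx2 ranged from 1636 through a median of 1930 to 2124 normalized counts at E13, from 4042 through 4508 to 6591 at E14, and from 769 through 4234 to 5720 at E16. All E14 teeth were above all E13 teeth, and the highest E14 value was that of the left tooth of embryo 6. The lowest E16 value was that of the deviating tooth, and the other 6 began at 3415, above all E13 teeth. Dlx2 rose 2.50-fold from E13 to E14 (log2 fold change 1.32, SE 0.24, edgeR adjusted p = 2.99e-04). From E14 to E16 its log2 fold change was -0.27 (SE 0.24, edgeR adjusted p = 0.430), and -0.07 without the deviating tooth (edgeR adjusted p = 0.677). At E16 it was 2.07-fold higher than at E13 (edgeR adjusted p = 9.99e-04), or 2.37-fold without that tooth.

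The ratio of Dlx1 to Dlx2 within a tooth, per kb of exon, had a median of 0.794 at E13 (0.6252 to 0.837), 0.273 at E14 (0.186 to 0.298), and 0.216 at E16 (0.198 to 0.928). From E13 to E14 the log2 ratio of counts fell by 1.52 with no overlap between the stages (exact permutation test over teeth, two-sided, p = 0.000583, adjusted p = 0.000777 over 12 comparisons, 7 teeth against 7). This p is the smallest that this test can give for 7 teeth against 7. Between E14 and E16 the log2 ratio differed by 0.05 (exact permutation test, adjusted p = 0.984). The mean of the E16 log2 ratios, which this test compares, depended on the deviating tooth, whose ratio of 0.928 was the highest of all. Without that tooth the E16 ratios lay between 0.198 and 0.240. The change from E14 to E16 was then -0.25 (exact permutation test, adjusted p = 0.0381), and the ranges of the stages still overlapped.

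The Dlx3/Dlx4 pair rose at each step. Dlx3, which is needed in the placenta and acts later in hair, enamel, and bone, ranged from 533 through a median of 611 to 771 normalized counts at E13, from 1702 through 1847 to 1978 at E14, and from 531 through 4029 to 4634 at E16. All E14 teeth exceeded all E13 teeth. All E16 teeth but the deviating tooth exceeded all E14 teeth, from 3332 upward, while that tooth at 531 was below the lowest E13 tooth. Dlx3 rose 2.91-fold from E13 to E14 (log2 fold change 1.54, SE 0.25, edgeR adjusted p = 9.05e-05) and 1.92-fold from E14 to E16 (log2 fold change 0.94, SE 0.25, edgeR adjusted p = 0.00538). Without the deviating tooth the latter rise was 2.21-fold (log2 fold change 1.15, SE 0.08, edgeR adjusted p = 2.63e-11).

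Dlx4 was the weakest member at E13, with 11 to 22 reads per tooth, and had the widest change. It ranged from 10.4 through a median of 19.7 to 23.4 normalized counts at E13, from 107 through 129 to 188 at E14, and from 201 through 506 to 634 at E16. No stages overlapped, even with the deviating tooth, which held the lowest E16 value. Dlx4 rose 7.65-fold from E13 to E14 (log2 fold change 2.94, SE 0.23, edgeR adjusted p = 1.16e-09), 3.47-fold from E14 to E16 (log2 fold change 1.80, SE 0.19, edgeR adjusted p = 6.23e-08), and 26.6-fold from E13 to E16. These rises without the deviating tooth were 3.84-fold from E14 to E16 and 29.4-fold from E13 to E16.

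Dlx3 remained above Dlx4 in every tooth, but their ratio fell at each step. Per kb it had a median of 38.3 at E13 (35.1 to 88.8), 17.3 at E14 (12.5 to 20.6), and 9.54 at E16 (3.30 to 10.8). The log2 ratio of counts fell by 1.38 from E13 to E14 and by 1.03 from E14 to E16, without overlap. For each fall the exact permutation test gave p = 0.000583, the smallest possible for 7 against 7 teeth (adjusted p = 0.000777). Without the deviating tooth, which had the ratio of 3.30, the latter fall was 0.81 (exact permutation test, adjusted p = 0.00140).

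Between E13 and E16 Dlx5 rose and Dlx6 fell. Dlx5, which works with Dlx6 in the lower jaw and acts in bone-forming cells, ranged from 1408 through a median of 1535 to 1875 normalized counts at E13, from 1489 through 1910 to 2645 at E14, and from 849 through 3708 to 4321 at E16. E13 and E14 overlapped. At E16 the deviating tooth was the lowest of all 21 teeth, and the other 6 began at 2493, above all E13 teeth and within the E14 range. Dlx5 did not pass the test between E13 and E14 (log2 fold change 0.31, SE 0.22, edgeR adjusted p = 0.350) and rose 1.60-fold from E14 to E16 (log2 fold change 0.68, SE 0.22, edgeR adjusted p = 0.0212). That rise was 1.82-fold without the deviating tooth (edgeR adjusted p = 9.36e-06), and with the teeth of the same embryo summed it did not pass (edgeR adjusted p = 0.0700). From E13 to E16 Dlx5 rose 1.98-fold (edgeR adjusted p = 7.94e-04), or 2.24-fold without that tooth.

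Dlx6 ranged from 738 through a median of 890 to 1047 normalized counts at E13, from 549 through 757 to 896 at E14, and from 251 through 417 to 636 at E16. The ranges of E13 and E14 and of E14 and E16 overlapped, but all E16 teeth were below all E13 teeth. Dlx6 did not pass the test between E13 and E14 (log2 fold change -0.30, SE 0.14, edgeR adjusted p = 0.149), fell 1.75-fold from E14 to E16 (log2 fold change -0.80, SE 0.14, edgeR adjusted p = 1.34e-04), and was 2.14-fold lower at E16 than at E13 (edgeR adjusted p = 1.08e-06). The fall from E14 to E16 was 1.62-fold without the deviating tooth (edgeR adjusted p = 1.05e-04), and E16 was then 1.99-fold below E13.

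Per kb, the ratio of Dlx5 to Dlx6 had a median of 1.91 at E13 (1.64 to 2.32), 2.997 at E14 (2.58 to 3.32), and 7.09 at E16 (3.54 to 12.4). The ratio therefore separated E13 from E14, although neither gene passed the test between these stages on its own. The thresholds of the tests are unlike, with adjustment over 12 comparisons for the ratios and over 19101 genes for the single genes. The gene test also uses a spread estimated over all stages. Without the deviating tooth the edgeR adjusted p between E13 and E14 was 0.0672 for Dlx5 and 0.0599 for Dlx6. The log2 ratio of counts rose by 0.60 from E13 to E14 and by 1.38 from E14 to E16, without overlap. Over teeth the exact permutation test gave an adjusted p of 0.000777 for each. With the teeth of the same embryo summed it gave 0.00253 and 0.00289. Without the deviating tooth, which was the lowest at E16 with 3.54, the latter rise was 1.56.

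**Figure D3:**
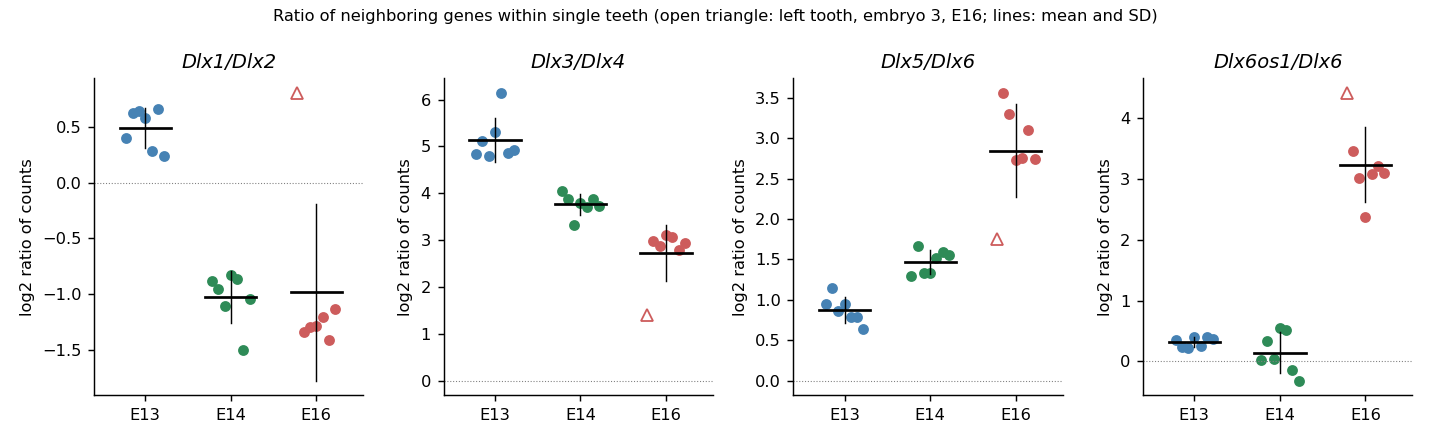
Log2 ratio of read counts (vertical axis) of Dlx1 to Dlx2, Dlx3 to Dlx4, Dlx5 to Dlx6, and Dlx6os1 to Dlx6 in each tooth of E13, E14, and E16 (horizontal axis), with the mean and SD as lines. Dlx3/Dlx4 and Dlx5/Dlx6 do not overlap between stages, and the deviating E16 tooth (open triangle) lies at 0.81 for Dlx1/Dlx2, above the E13 teeth.

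Dlx6os1 was highest at E16, where Dlx6 was lowest. It ranged from 955 through a median of 1169 to 1251 normalized counts at E13, from 692 through 773 to 957 at E14, and from 3170.5 through 3553 to 5379 at E16. The E13 and E14 ranges overlapped narrowly, and all E16 teeth were above all earlier teeth. Dlx6os1 fell 1.40-fold from E13 to E14 (log2 fold change -0.48, SE 0.11, edgeR adjusted p = 0.00217) and rose 4.83-fold from E14 to E16 (log2 fold change 2.27, SE 0.11, edgeR adjusted p = 2.53e-13), the largest rise of the 7 genes at that step. The latter was 4.55-fold without the deviating tooth. Against Dlx6, which it contains, its level per kb had a median ratio of 0.583 at E13 (0.537 to 0.609), 0.473 at E14 (0.370 to 0.674), and 3.91 at E16 (2.39 to 9.80). The log2 ratio differed by -0.18 between E13 and E14 (exact permutation test, adjusted p = 0.221) and rose by 3.09 from E14 to E16 with no overlap (exact permutation test, adjusted p = 0.000777), or by 2.90 without the deviating tooth, which had the ratio of 9.80.

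The counts of Dlx6os2 and Gm44094, annotated within the span of Dlx6os1, also rose from E14 to E16. Dlx6os2, on the same strand, averaged 96.9 ± 9.19 (SD, n = 7) normalized counts at E13, 74.2 ± 26.4 at E14, and 367 ± 112 at E16, and Gm44094, in an intron of Dlx6os1, averaged 204 ± 30.6, 146 ± 26.2, and 741 ± 167. From E14 to E16 Dlx6os2 rose 4.93-fold (edgeR adjusted p = 3.13e-09) and Gm44094 rose 5.06-fold (edgeR adjusted p = 6.19e-12), or 4.44-fold and 4.76-fold without the deviating tooth. Both lie on the strand of Dlx6os1 and share no exon base with it. Reads from unspliced RNA of Dlx6os1 therefore cannot be told apart from theirs, and whether they are separate RNAs was not tested. Dlx6os2 shares 104 exon bases with Dlx6 on the opposite strand, 4.38% of the exon length of Dlx6 and 7.68% of its own. The strand setting of the counting is not given in the sources used here, so reads from bases that genes on opposite strands share cannot be told apart. Gm27699, Gm27905, and a short RNA annotated under the symbol Dlx6os1 with another identifier had at most 9 reads in any tooth.

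The other pairs also have an antisense RNA. Dlx1as shares 335 exon bases with Dlx1, which are 20.6% of its own exon length and 6.21% of that of Dlx1, and Dlx4os shares 79 with Dlx4, which are 4.75% of its own and 2.42% of that of Dlx4. Reads from these bases cannot be told apart either, and their part in the levels of the antisense RNAs was not tested. Dlx1as ranged from 222 through a median of 293 to 490.3 normalized counts at E13, from 1366 through 1772 to 1894 at E14, and from 826 through 1033 to 1249 at E16, with no overlap between the stages. It rose 5.27-fold from E13 to E14 (edgeR adjusted p = 5.40e-12) and fell 1.57-fold from E14 to E16 (edgeR adjusted p = 3.25e-04), whereas Dlx1 did not pass the test at the former step. Dlx4os ranged from 6.63 through 9.42 to 27.1 at E13, from 20.9 through 38.2 to 54.2 at E14, and from 200.5 through 267 to 282 at E16. E13 and E14 overlapped, and E16 was above both. Dlx4os rose 3.47-fold and then 6.31-fold (edgeR adjusted p = 2.09e-05 and 1.61e-09), where Dlx4 rose 7.65-fold and then 3.47-fold. Leaving out the deviating tooth, the changes from E14 to E16 were a 1.502-fold fall of Dlx1as and a 6.27-fold rise of Dlx4os. In that tooth Dlx4os was at 112% of the mean of the other E16 teeth and Dlx1as at 75.9%.

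**Figure D4:**
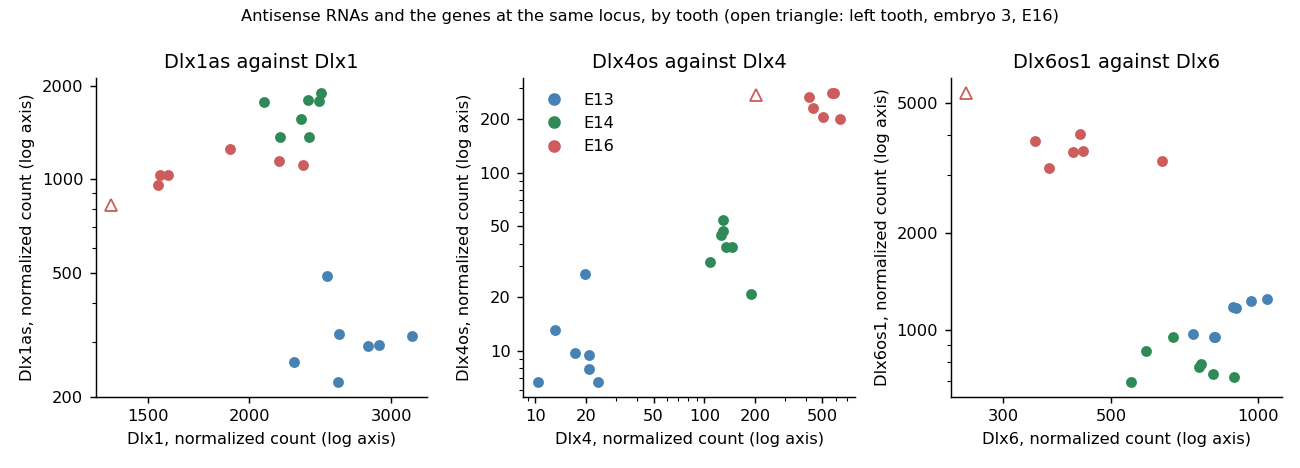
Normalized counts of Dlx1as against Dlx1, Dlx4os against Dlx4, and Dlx6os1 against Dlx6 in each tooth (log axes), with colors for E13, E14, and E16 and an open triangle for the left E16 tooth of embryo 3. Dlx4os and Dlx4 are both highest at E16, Dlx1as is lowest at E13 where Dlx1 is high, and Dlx6os1 is at 3170.5 or more in all E16 teeth, where Dlx6 is lowest.

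**Figure D5:**
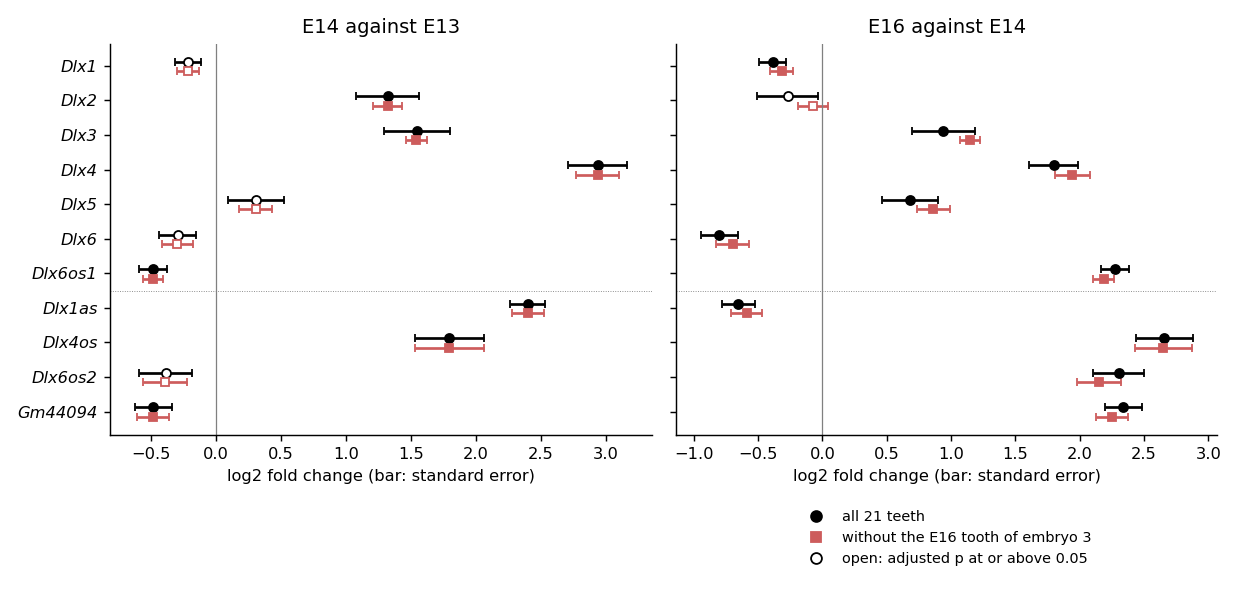
Log2 fold change (horizontal axis) with its standard error for the 7 genes and, under the dotted line, 4 overlapping RNAs, at E14 against E13 and at E16 against E14, in all 21 teeth (black) and without the deviating E16 tooth (red). Open symbols have an adjusted p at or above 0.05, and the same genes are open in both fits.

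The members differed in how far the teeth of a stage varied. The biological coefficient of variation estimated by edgeR was 13.9% for Dlx1 and 14.48% for Dlx6os1, near the 15.1% of genes of their level. It was 18.8% for Dlx6 and 24.5% for Dlx4, and 30.9% for Dlx2, 31.97% for Dlx3, and 28.4% for Dlx5. Without the deviating tooth the coefficient of variation among the E16 teeth was 20.8% in place of 41.6% for Dlx2, 13.53% in place of 40.1% for Dlx3, and 21.5% in place of 39.2% for Dlx5.

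E15 was available only in the table of salmon counts, which lists the 6 Dlx genes but not Dlx6os1, and was compared only within that table. The study's methods describe mouse molars of E13, E14, and E16 but not E15, and the E15 labels give the age under another heading. For E15, a difference of stage therefore cannot be told apart from one between separately submitted sets of samples. The salmon counts of a tooth were close to its HTSeq counts, with median ratios between 0.943 and 0.976 for 5 of the genes and 0.848 for Dlx6. At E15 against E13, 3 of the 6 passed the edgeR test (2 higher, 1 lower) against 26.8% of 13447 genes (18.3% higher, 8.49% lower). Dlx3 rose 2.92-fold (edgeR adjusted p = 8.78e-05), Dlx4 rose 16.02-fold (edgeR adjusted p = 5.02e-10), and Dlx6 fell 1.94-fold (edgeR adjusted p = 8.84e-04). Dlx4 ranged from 9.38 to 22.2 normalized counts at E13, from 166 to 466 at E15, and from 204 to 603 at E16, and Dlx6 from 565 to 880, from 216 to 606, and from 242 to 546. The E15 range of Dlx4 was above that of E13, that of Dlx6 overlapped E13, and for both genes E15 overlapped E16. Dlx2 was 1.57-fold higher at E15 than at E13 without passing (edgeR adjusted p = 0.0625), and passed without the deviating E16 tooth, with an SE of 0.14 in place of 0.25 (edgeR adjusted p = 0.00134).

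At E16 against E13, all 6 passed in this table too (4 higher, 2 lower), against 36.4% of all genes (21.7% higher, 14.7% lower). At E16 against E15, 2 of the 6 passed (1 higher, 1 lower), against 6.33% of all genes (3.64% higher, 2.69% lower). Dlx3 was 1.91-fold higher (edgeR adjusted p = 0.0309) and Dlx1 1.30-fold lower (edgeR adjusted p = 0.0305). This count depended on single teeth. It was 5 without the deviating tooth, where 10.3% of all genes passed, 0 without E15 replicate 1, 6, or 7 or E16 replicate 2 or 6, and 1 without E15 replicate 2 or E16 replicate 3, 4, 5, or 7. The 5 were Dlx1, Dlx2, Dlx3, Dlx4, and Dlx5, and Dlx6 differed by a log2 fold change of -0.01 (edgeR adjusted p = 0.992). The ratio of Dlx5 to Dlx6 at E15 was above that of E13 without overlap, with a log2 difference of 1.41 (exact permutation test, p = 0.000583, adjusted p = 0.00105 over 9 comparisons), and overlapped that of E16 (difference 0.53, exact permutation test, adjusted p = 0.104). At E15 against E13 the log2 ratio differed by -0.80 for Dlx1/Dlx2 and -2.37 for Dlx3/Dlx4, without overlap (exact permutation test, adjusted p = 0.00105 each). For both pairs E16 overlapped E15. The differences there were -0.67 for Dlx1/Dlx2 and -0.06 for Dlx3/Dlx4 (exact permutation test, adjusted p = 0.104 and 0.855).

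Genes known to act around the Dlx genes were taken from lists. Of 8 upstream signals, 2 were higher and 1 lower at E14 than at E13, and 2 were higher and 2 lower at E16 than at E14, with a median log2 fold change of 0.10 and -0.04 against -0.01 and 0.00 for all genes tested. Without the deviating E16 tooth 4 were higher and 3 lower at E14 than at E13, and 3 were higher and 2 lower at E16 than at E14. Of all genes tested, 19.7% and then 28.1% passed at these steps with all teeth. Without that tooth the shares rose to 30.4% and 34.3%, which applies to the lists below too. Fgf8, an early signal of the oral epithelium, fell 3.93-fold and then 11.9-fold (edgeR adjusted p = 0.00106 and 2.88e-05), from 81.0 ± 29.9 (SD, n = 7) normalized counts at E13 to 20.6 ± 10.4 at E14 and 1.57 ± 2.14 at E16. Edn1, the ligand that turns on Dlx5 and Dlx6 in the lower jaw, rose 4.80-fold from E13 to E16 (edgeR adjusted p = 5.89e-04), from 12.6 ± 10.9 to 62.0 ± 23.3 normalized counts.

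Of 7 genes that act downstream of Dlx genes in the jaw, 6 were tested, of which 1 was higher and 3 lower at E14 than at E13 (median log2 fold change -0.74). Hand2, a target of endothelin signaling, fell 11.6-fold (edgeR adjusted p = 0.00628), from between 4.29 and 238 normalized counts at E13 to at most 13.3 at E14. Alx4 fell 4.41-fold (edgeR adjusted p = 2.13e-06). At E16 against E14, 2 were higher and none was lower, Gbx2 rising 3.58-fold (edgeR adjusted p = 0.00264). These counts were the same without the deviating tooth. Hand1 was listed at 0 in all 21 teeth.

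Of 10 other homeobox and paired-box genes of the tooth, 3 were higher and 2 lower at E14, and 2 were higher and 6 lower at E16 than at E14 (median log2 fold change -0.09, then -0.60). With the deviating tooth left out, 4 were higher and 2 lower at E14, and the counts at E16 were unchanged. Msx2, a target of BMP signals in epithelium and mesenchyme, rose 3.03-fold and then 4.43-fold (edgeR adjusted p = 9.63e-06 and 2.39e-08). From E14 to E16 Prrx1 fell 2.46-fold, Msx1 fell 2.20-fold, and Prrx2 fell 2.19-fold (edgeR adjusted p = 2.73e-12, 1.92e-06, and 2.16e-06). Prrx2 had first risen 2.03-fold from E13 to E14 (edgeR adjusted p = 1.85e-05). Its log2 fold change at E16 against E13 was -0.11 (edgeR adjusted p = 0.594). Of 11 genes of mineralized tissue and keratins, 7 were tested. At each step 2 were higher and none lower, or 3 and then 4 higher without the deviating tooth. At E16 against E13, 5 were higher and none lower (median log2 fold change 0.96), as without that tooth. With all teeth, 21.6% of all genes tested were higher in that comparison. Krt75, a keratin of hair and enamel regulated by Dlx3, rose 3.18-fold from E13 to E14 (edgeR adjusted p = 2.56e-05). From E14 to E16 its log2 fold change was 0.13 (edgeR adjusted p = 0.728). The other listed gene higher at E14 with all teeth was the keratin Krt14, also an epithelial marker here. Ambn rose 2.25-fold from E14 to E16 (edgeR adjusted p = 0.00155). From E13 to E16 Krt14 and Col1a1 each rose 2.23-fold (edgeR adjusted p = 2.87e-09 and 2.49e-04). Of 6 forebrain genes that Dlx factors regulate, 3 were tested, and Gad1, which makes the transmitter GABA, rose 14.7-fold from E13 to E14 and fell 5.29-fold from E14 to E16 (edgeR adjusted p = 9.22e-09 and 1.10e-06).

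The nearest protein-coding genes outside each pair were compared with it. Next to Dlx1, Metap1d at 2918 bases had a log2 fold change of -0.15 at E14 against E13 (edgeR adjusted p = 0.292) and rose 1.21-fold from E14 to E16 (edgeR adjusted p = 0.0280). Next to Dlx2, Itga6, an integrin subunit of basal epithelial cells at 198861 bases, rose 2.91-fold from E13 to E14 (edgeR adjusted p = 4.19e-11), where Dlx2 rose 2.50-fold. Next to Dlx3, Itga3 rose 1.42-fold at that step (edgeR adjusted p = 0.0144), and next to Dlx4, Tac4 was near 0. From E14 to E16 the log2 fold change was -0.23 for Itga6 and 0.03 for Itga3 (edgeR adjusted p = 0.0727 and 0.900). Beyond Dlx5, Sdhaf3 averaged 259 ± 40.8 (SD, n = 7) normalized counts at E13, 258 ± 41.9 at E14, and 261 ± 49.6 at E16. Beyond Dlx6os1, Sem1 had a log2 fold change of 0.34 from E13 to E14 (edgeR adjusted p = 0.136) and 0.11 from E14 to E16 (edgeR adjusted p = 0.648). It was 1.37-fold higher at E16 than at E13 (edgeR adjusted p = 0.0251).

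For each member, the protein-coding genes outside the family with the most similar course were found by the correlation of log2 levels over the 21 teeth, among 14552 genes. These values are descriptions, since the teeth share their stage. Without the deviating tooth the correlations of the same genes lay between 0.87 and 0.99. They were Msx1 and Pax9 for Dlx1 (r = 0.92 and 0.91), Zmiz1 and Bgn for Dlx2 (0.97 each), Cdh3 and Fam120a for Dlx3 (0.99 and 0.98), Cd109 and Ndufa4l2 for Dlx4 (0.98 each), and Ly6e and Gltp for Dlx5 (0.96 and 0.95). They were Rtl3 and Zfhx4 for Dlx6 (0.96 and 0.95) and Crnn and Serpinb3a for Dlx6os1 (0.97 each). Cdh3, the P-cadherin of epithelia, averaged 982 ± 81.7 (SD, n = 7) normalized counts at E13, 2056 ± 205 at E14, and 2941 ± 940.1 at E16, and in the deviating tooth it was at 868, below the E13 range as Dlx3 was. Crnn, a protein of stratified epithelium, was between 0 and 0.947 at E13, at 0 in all E14 teeth, and between 27.6 and 65.3 at E16, with the highest value in the same tooth as Dlx6os1. Msx1 and Pax9, which are required in the dental mesenchyme, averaged 4155 ± 1240.2 and 5064 ± 919 at E16 against 10349 ± 950.3 and 8771 ± 855 at E13.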

How the data were processed

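Single molar tooth germs were sequenced on an Illumina NextSeq 500. Per the labels and the study's methods, reads were filtered and mapped with STAR on GRCm38, and the authors deposited HTSeq counts per gene, not normalized, for 21 teeth. The second deposited table holds expected counts estimated by salmon (version 0.99.0 in the submitters' processing notes) for 14185 genes in 20 teeth, which were rounded to whole numbers and fitted separately. The strand setting and the HTSeq mode are not given in the sources used here. The depth was 17814073 to 27115729 counts per tooth for HTSeq and 14965319 to 24056056 for salmon. For E15, 7 teeth are labelled and 6 were used here. An E13 column whose name does not give its embryo was assigned only to its stage. Replicate numbers follow the order of the samples, replicate 1 of E16 being the left tooth of embryo 3, and teeth of a stage are separate teeth, some of the same embryo. At E13, E14, and E16 no 2 teeth of a stage agreed within sampling noise (chi-square per degree of freedom at least 7.21).

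Genes were tested with the quasi-likelihood test of edgeR (4.0.16, R 4.3.3), with TMM normalization, the filterByExpr filter (19101 genes kept), the stages of a table in 1 fit, and Benjamini-Hochberg adjustment over all genes tested. Levels were counts divided by size factors of DESeq2 (1.42.0), and per kb of the union of exons in GENCODE, in which 233 of 52636 identifiers are absent. Ratios within a tooth were log2((count + 0.5)/(count + 0.5)), compared with two-sided exact permutation tests over teeth, adjusted over 4 ratios and 3 stage comparisons. The permutation tests of E15 were added after the data were seen. The scripts were tested on simulated data. Levels and figures were made with Python 3.11.15, using pandas 2.3.3, matplotlib 3.10.9, scipy 1.17.1, and numpy 2.4.6.

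The members and lists were chosen with earlier results of these data known. The genes named are the 7 members, annotated genes overlapping them, the nearest genes, the 2 protein-coding genes most correlated with each member, and up to 4 genes per list with an adjusted p below 0.05 and an absolute log2 fold change of at least 1, the largest before the others. Hand1, as a listed gene at 0, was named after its values were seen. The alternatives were size factors in place of TMM, no filter, summed teeth of an embryo, side or embryo number as a factor, DESeq2, the salmon table, a pseudocount of 1, other lengths, and each tooth left out in turn. A homeobox was located in each transcript by the conserved codons of its recognition helix.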

Additional observations from a re-analysis of the deposited data

Results flagged for a closer look

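Of 33 groups of 7 teeth examined (7 genes and 4 ratios at 3 stages) for a value far from the others, 7 held such a tooth, where chance gives about 1 in 20. In 4 of the 7 it was the left tooth of embryo 3 at E16. That tooth had 531 normalized counts of Dlx3, with the next lowest tooth at 3332. It had 5379 normalized counts of Dlx6os1, with the next highest at 4014. Its log2 count ratio of Dlx1 to Dlx2 was 0.81, with the next highest at -1.14, and that of Dlx3 to Dlx4 was 1.40, with the next lowest at 2.79.

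In 2 others it was the left tooth of embryo 6 at E14. It had 6591 normalized counts of Dlx2, with the next highest at 4903, and a log2 count ratio of Dlx1 to Dlx2 of -1.51, with the next lowest at -1.11. The last was the left tooth of embryo 7 at E13, with a log2 count ratio of Dlx3 to Dlx4 of 6.15 against 5.30 in the next highest. Its Dlx4 value rested on 11 reads.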

How the results depend on the processing

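The number of genes that passed stayed at 4 between E13 and E14 in all alternatives, and was 4 to 6 between E14 and E16 and 5 to 7 between E13 and E16. With the embryo number as a replicate block, the counts were 4, 4, and 5, where 8.78%, 25.4%, and 27.3% of all genes passed, and Dlx6os1 at E14 against E13 (adjusted p = 0.0998), Dlx3 and Dlx5 at E16 against E14 (0.0855 and 0.105), and Dlx2 and Dlx5 at E16 against E13 (0.108 and 0.124) no longer passed, while Dlx1 at E14 against E13 did (log2 fold change -0.34, edgeR adjusted p = 0.0442). Of 11 pairs of the same embryo number at different stages, 2 correlated above 0.1 in their deviations from the stage means, and 5 best with their own number. The correlations lay between -0.09 and 0.22, which does not settle whether the number pairs the teeth. With teeth summed by embryo, Dlx5 at E16 against E14 had a log2 fold change of 0.63 (edgeR adjusted p = 0.0700). The exact permutation test of teeth summed by embryo gave an adjusted p of 0.00253 for Dlx1/Dlx2 and Dlx3/Dlx4 at E14 against E13. At E16 against E14 it gave 0.00289 for Dlx3/Dlx4 and Dlx6os1/Dlx6. The Dlx1/Dlx2 log2 ratio between E14 and E16 ranged from -0.25 to 0.12 with single teeth left out, reversing without the deviating E16 tooth (-0.25) and without the left E14 tooth of embryo 6 (-0.03, exact permutation test, adjusted p = 0.995). The count at E16 against E15 ranged from 0 to 5, and was 3 with DESeq2, where Dlx4 passed (adjusted p = 0.0273). Dlx6 at E16 against E15 ranged from -0.21 to 0.12 with single teeth left out, reversing without E15 replicate 7 (0.12, edgeR adjusted p = 0.842). With other lengths 20 shares of the Dlx sum moved by more than the SD between teeth. With single teeth left out, 15 calls of single genes were lost and 7 gained, all in the salmon table. No other change of direction occurred among the members and ratios tested. The causes were not tested. Dlx4 at E13 rested on 11 to 22 reads per tooth, which limits its ratio.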
